A study of Capra hircus with 10 samples.

Results

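Knockdown of the long noncoding RNA lncRNA55666 was compared with its control virus in goat mammary gland cells. The comparison used 4 of the 10 RNA-seq libraries of the study, 2 labelled KD553 and 2 labelled Lv3NC, and was made over 11340 of 17197 genes, those that reached 1 FPKM in 2 or more of the 10 libraries. FPKM is a fragment number corrected for the length of the transcript and the size of the library. All cells came from Lanshan dairy goats and were grown in 3D culture. KD553 cells received a virus that lowers the lncRNA, per the labels, and Lv3NC cells carry the genotype label 3NC. The labels do not give the promoter, the target sequence or the content of the 3NC virus. That 3NC is the control of the knockdown rests on the order of the groups in the series text, where it stands just before the knockdown. The other 6 libraries, used here for the spread and for reference, were Blank (genotype label control), Lv5NC (5NC) and OV55666 (lncRNA55666 overexpression), each with 2 libraries.

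Long noncoding RNAs are transcripts without a long open reading frame, and many act on the transcription, splicing or stability of other RNAs. Viral knockdown usually delivers a short hairpin RNA that is cut by Dicer and loaded onto Argonaute proteins. The mammary gland is built of milk-secreting luminal cells, contractile basal cells and a fibroblast stroma, which lays down collagen and proteoglycans and signals to the epithelium.

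No row of the table was named for lncRNA55666, so its level is not analysed here and the knockdown was not checked against the labels. Whether the paired libraries of a group are separate cultures or animals is not stated. The p-values then reflect how far these libraries scatter, which may be technical. Titles and descriptions number the KD553 samples differently, so both columns were used as libraries of the group, and values are given below in column order. Depth in reads is unknown. FPKM summed to between 440565 and 460423 per library, and 10922 to 11163 genes reached 1 FPKM. The second Blank library stood apart, with 12.6% of its FPKM in its top 2 rows against 6.18% to 8.17% in the others. The 2 KD553 libraries differed from each other by more than 1 on the log2 scale in 73 genes, and the 2 Lv3NC libraries in 34.

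The cell type label was set against marker genes. Of 19 luminal epithelial markers, 17 were below 1 FPKM in all 4 libraries and 4 of these were at 0 throughout, whereas all 12 fibroblast markers were at 1 FPKM or more. Apart from ESR1 and SPINT2, the defining RNAs of luminal mammary epithelium were thus near the floor, and those of fibroblasts were present. Summed luminal markers were 18.6 and 18.3 FPKM in KD553 against 15.2 and 15.9 in Lv3NC, and summed fibroblast markers 22380 and 22630 against 20640 and 22230. Of 8 basal markers with a row, 3 were below 1 FPKM in all 4 libraries: KRT14, TP63 and OXTR. Summed basal markers, most of it the smooth muscle gene products of ACTA2, TAGLN and MYLK, were 1981 and 2086 against 1858 and 1689. Leukocyte markers, of which 12 of 14 were below 1 FPKM in all 4 libraries, summed to 37.2 and 29.9 against 24.0 and 25.8, most of it CD14 (34.9 and 26.9 against 21.6 and 22.5 FPKM). Endothelial markers (7 of 9 below 1 FPKM) summed to 21.1 and 23.0 against 16.6 and 20.8, and adipocyte markers (6 of 7 below 1 FPKM) to 6.98 and 7.81 against 6.49 and 7.50. Since RNA came from whole cultures, fewer cells of a type and less RNA per cell cannot be told apart in any value below.

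With knockdown, 5 genes rose and 3 fell at an adjusted p under 0.05 (limma on log2(FPKM + 1), Benjamini-Hochberg over all genes tested), which is 0.0705% of the genes tested. Those that rose were CH25H, which makes the oxysterol 25-hydroxycholesterol, HSPB6, a small heat shock protein of muscle and mesenchyme, PRELP and WISP2, a pair of extracellular matrix genes, and MSX2, a homeobox transcription factor. Those that fell were S1PR2, a receptor for sphingosine 1-phosphate, GSPT1, the translation termination factor eRF3a, and KCTD3, a protein that binds the pacemaker channel HCN3. For all 8 genes both KD553 libraries were outside the span of the other 8 libraries, 5 above it and 3 below it. After quantile normalization the split was 4 higher and 4 lower, with WISP2 and S1PR2 no longer called and PDZD11 and SHC2 called as lower. Over all genes, 5.94% lay above and 3.79% below the other 8 libraries in both KD553 libraries. The 8 genes were called in a fit to these same libraries, so their place outside the span is no separate support.

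**Figure D1:**
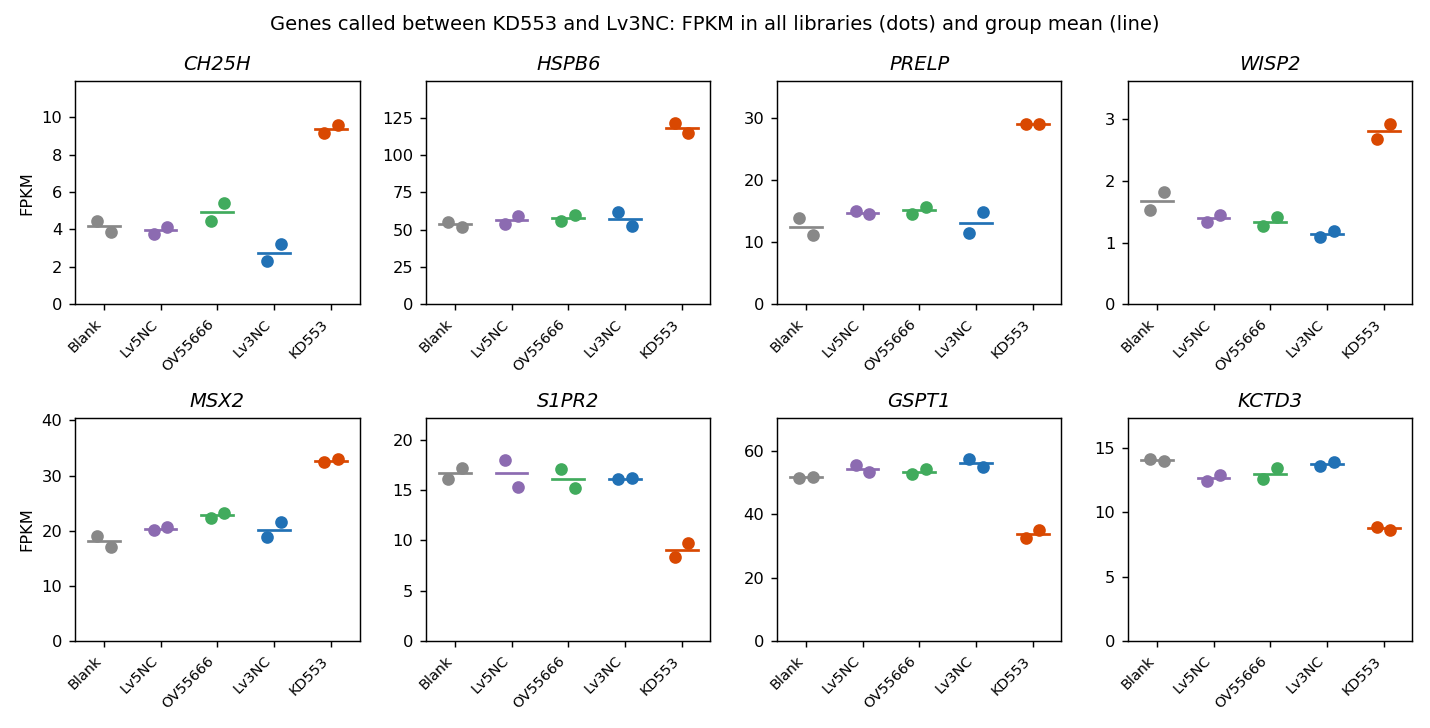
FPKM (vertical axes, from 0) of the 8 called genes in each of the 10 libraries; dots are libraries, lines are group means, and the 5 groups stand along the horizontal axes. The 2 KD553 libraries stand above all others for CH25H, HSPB6, PRELP, WISP2 and MSX2 and below all others for S1PR2, GSPT1 and KCTD3.

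Most of the transcriptome lay close to its control level. The median log2 change over all genes was 0.0028, with 5770 genes higher and 5570 lower, and 17 genes differed by more than 1 on the log2 scale and 199 by more than 0.5. At an unadjusted p under 0.05, 446 genes were higher (3.93%) and 407 lower (3.59%). Both KD553 libraries were above both Lv3NC libraries in 2193 genes (19.3%) and below both in 2079 (18.3%). All 8 called genes carry a gene symbol of their own; none of 314 tested BGI_novel rows and none of 783 rows named LOC passed.

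**Figure D2:**
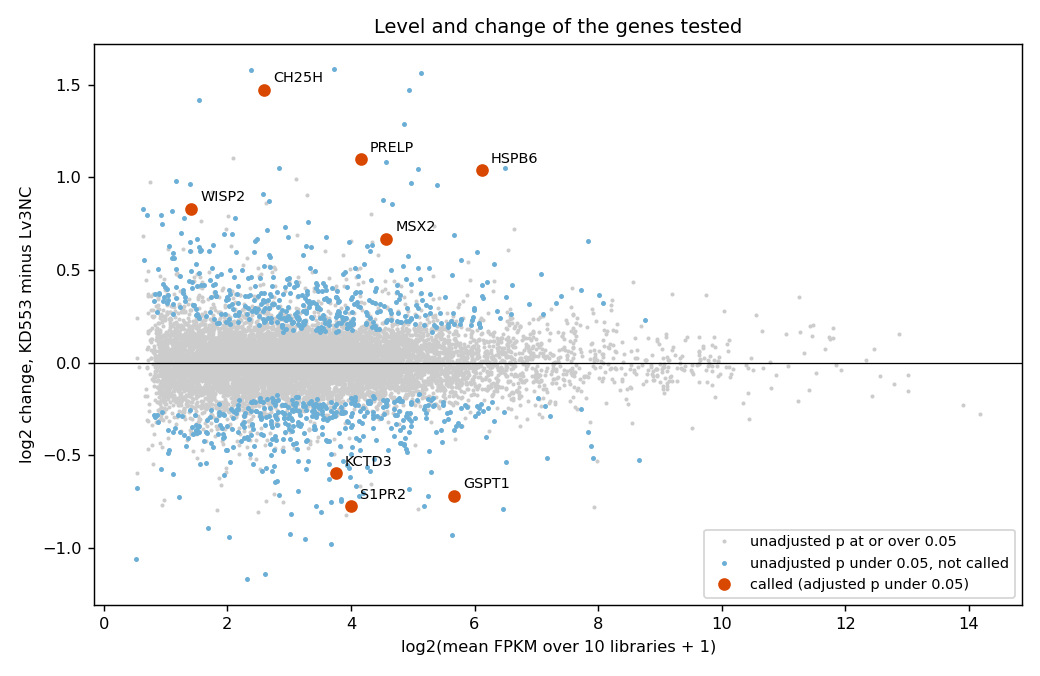
log2 change between KD553 and Lv3NC (vertical axis) against log2 of the mean FPKM over 10 libraries plus 1 (horizontal axis) for the 11340 genes tested. The 8 called genes are labelled; blue points are the other genes with an unadjusted p under 0.05, and several of them lie further from 0 than the called genes.

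The number of calls depended on the fit and on single libraries. Fitted on the 4 libraries compared alone, limma called none (0). With a replicate block by library number over all 10 libraries it called CH25H alone, though whether the numbers pair the libraries is unclear. Without the first or the second KD553 library limma gave 0 calls, and 714 and 962 genes had an unadjusted p under 0.05. Without the first Lv3NC library it called 2, and without the second 3. With Lv5NC as the control, HSPB6 and GSPT1 were called and the other 6 genes were not. In each of these fits all 8 genes kept their direction and an unadjusted p under 0.05. Where 1 library was left out, the lone library was assumed to vary like those of the other groups.

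CH25H stood at 9.18 and 9.58 FPKM in the KD553 libraries and at 2.33 and 3.20 in the Lv3NC libraries. The other 6 libraries ran from 3.78 to 5.39 with a median of 4.28, so both groups compared lay outside the rest, the knockdown above and the control virus below. The ratio of the means was 3.39, and the log2 change 1.47 ± 0.13 (SE; limma adjusted p = 0.01). Against Lv5NC the log2 difference was 1.07 (limma adjusted p = 0.051) and against Blank 1.01 (adjusted p = 0.0074). Its neighbours in the RefSeq annotation, the lysosomal lipase gene LIPA and the death receptor gene FAS, differed by −0.07 and 0.12 on the log2 scale and were not called.

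HSPB6 was the most abundant of the 8 called genes, with 121 and 115 FPKM against 62.0 and 52.4. The other 6 libraries lay between 51.6 and 59.7, so the Lv3NC libraries sat with the rest. The ratio of the means was 2.06 and the log2 change 1.04 ± 0.10 (limma adjusted p = 0.0134), and the difference was of like size against Lv5NC (1.06, adjusted p = 0.0228) and Blank (1.13, adjusted p = 0.0033). Of the other small heat shock proteins, HSPB1 was at 342 and 328 FPKM against 319 and 275, and CRYAB at 59.1 and 56.6 against 60.2 and 67.7. Neither passed the test. Among the 6 tested genes of that family and its partner BAG3, 3 were higher and 3 lower, with a median of 0.05.

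PRELP encodes a small leucine-rich proteoglycan that anchors basement membranes to collagen. Its FPKM was 28.99 and 29.04 in KD553, 11.5 and 14.8 in Lv3NC, and 11.1 to 15.6 in the other 6 libraries. The KD553 libraries were almost equal to each other and far above the next highest library. The log2 change was 1.10 ± 0.13 (ratio of the means 2.21, limma adjusted p = 0.0237), and the difference from Lv5NC was 0.93 (adjusted p = 0.065). FMOD, its neighbour in the annotation and a member of the same family, was at 472 and 460 FPKM against 396 and 398 (log2 0.23 ± 0.09), inside the range of the other 6 libraries (389 to 477).

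WISP2, also called CCN5, is a matricellular protein that lacks the C-terminal domain of other CCN proteins. It was low in all groups, at 2.68 and 2.92 FPKM against 1.09 and 1.18, with 1.26 to 1.82 in the other 6 libraries. The ratio of the means was 2.47, and the log2 change of 0.83 ± 0.10 (limma adjusted p = 0.0354) understates it because of the pseudocount of 1. Against Lv5NC the log2 difference was 0.67 (limma adjusted p = 0.113) and against Blank 0.51 (adjusted p = 0.0394). The Lv3NC libraries were the lowest of all.

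MSX2, a homeobox factor downstream of BMP signals in mesenchyme, was at 32.4 and 32.9 FPKM against 18.8 and 21.6. In the other 6 libraries it lay between 17.0 and 23.2. The log2 change was 0.67 ± 0.09 (ratio of the means 1.62, limma adjusted p = 0.0454), and the difference from Lv5NC was 0.66 (adjusted p = 0.065). Its relative MSX1 was far lower and overlapped between the groups, at 3.68 and 3.26 FPKM against 3.47 and 2.54.

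S1PR2 was at 8.35 and 9.74 FPKM with knockdown, against 16.1 and 16.2 with the control virus and 15.2 to 18.0 in the other 6 libraries. The 8 libraries without knockdown lay close together, and both KD553 libraries were well below them. The ratio of the means was 0.561 and the log2 change −0.77 ± 0.10 (limma adjusted p = 0.047), and the difference from Lv5NC was −0.81 (adjusted p = 0.063). Of the 8 called genes S1PR2 was the least firmly called, missing the threshold in 12 of 17 alternatives. SPHK1, the kinase that makes the ligand of the receptor, was at 30.6 and 27.6 FPKM against 37.1 and 34.7, below the other 6 libraries (35.1 to 45.8) as well, without passing the test (log2 −0.30 ± 0.10). The other tested receptors of the family were near 1 FPKM, with S1PR1 at 1.49 and 1.02 against 1.37 and 0.81, and S1PR3 at 0.76 and 1.52 against 0.59 and 0.99. Among the 24 tested genes of sphingosine phosphate receptors, ceramide synthesis and breakdown, 16 were higher and 8 lower, with a median of 0.05.

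GSPT1 was at 32.7 and 35.0 FPKM against 57.5 and 54.9, and the other 6 libraries lay between 51.5 and 55.6. The spread among the 8 libraries without knockdown was thus far smaller than the gap. The ratio of the means was 0.602 and the log2 change −0.72 ± 0.07 (limma adjusted p = 0.0161). GSPT2, a closely related gene with which reads could be shared, was far lower and overlapped between the groups, at 3.08 and 2.75 FPKM against 2.75 and 3.14 (log2 −0.01). ETF1, the release factor eRF1 that works with GSPT1, was at 38.5 and 41.2 against 42.3 and 40.6 FPKM. Across 27 tested genes of translation termination, ribosome rescue and nonsense-mediated decay, 13 were higher and 14 lower, the median was −0.0019, and 1 gene, GSPT1 itself, had an unadjusted p under 0.05.

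KCTD3 was at 8.89 and 8.67 FPKM against 13.7 and 13.9, with 12.5 to 14.2 in the other 6 libraries. Its log2 change was −0.60 ± 0.07 (ratio of the means 0.637, limma adjusted p = 0.0237), and the difference from Lv5NC was −0.48 (adjusted p = 0.079). Of the 19 tested genes of the KCTD family and HCN channels, 11 were higher and 8 lower. KCTD9 was the only other member with an unadjusted p under 0.05, at 7.83 and 8.79 against 6.82 and 7.16 FPKM, and HCN2, a pacemaker channel subunit, was at 3.69 and 3.59 against 3.60 and 3.68.

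Next to the called genes stood 24 genes that did not pass, taken as the 12 higher and 12 lower genes with the smallest unadjusted p among those whose groups did not overlap. The smallest adjusted p among uncalled genes was 0.101, for PDZD11, a PDZ-domain protein of cell junctions, at 25.3 and 27.6 FPKM against 40.1 and 40.6. The higher genes were DPP4, SEMA3C, COL8A1, TIMP3, RNF128, TMEM106A, PLAC9, SCRN1, IL6, OMD, VHL and TCF7L1. The lower genes were PDZD11, SHC2, MRGBP, MVK, KIF1C, FSTL1, HMGCS1, SAV1, SFT2D1, NREP, ASL and ABCA1. With the exception of TCF7L1, SFT2D1 and ASL, their KD553 libraries lay outside all 8 others. Of all genes, 5.94% lay above and 3.79% below the others in both KD553 libraries. The 24 genes were picked from a fit to these same libraries and for no overlap with Lv3NC, so their place is no separate support.

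Some of these 24 genes are given with their values. DPP4, a membrane peptidase and a marker of some fibroblast populations, was at 1.36 and 1.40 FPKM against 0.29 and 0.46. SEMA3C, a secreted guidance factor, was at 5.69 and 6.54 against 3.45 and 3.55. FSTL1, a secreted glycoprotein that binds BMP ligands, was the most abundant of them, at 299 and 302 FPKM against 417 and 449, with 391 to 495 in the other 6 libraries. Its 2 KD553 libraries were nearly equal and lay well below the lowest of the others. SAV1, a scaffold of the Hippo pathway, was at 4.34 and 3.73 against 6.44 and 5.77. VHL, the ubiquitin ligase subunit that marks HIF proteins for breakdown, was at 5.66 and 5.27 against 3.64 and 3.76. Its log2 difference was far smaller against the other controls, 0.15 against Lv5NC (limma adjusted p = 0.683) and 0.08 against Blank (adjusted p = 0.685).

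Of the 31 lists of pathway genes, cholesterol synthesis was the furthest below its control level. The pathway runs from acetyl-CoA through mevalonate and squalene to cholesterol, and its genes are switched on together by SREBP2 when cell sterols are low. Of 20 tested genes, 0 passed the test at an adjusted p under 0.05, 19 were lower, 17 lay below both Lv3NC libraries in both KD553 libraries (18.3% of all genes did), and 13 were lower at an unadjusted p under 0.05 (3.59% of all genes). The median log2 change was −0.55, against 0.0028 over all genes. HMGCS1, which makes HMG-CoA, was at 31.3 and 27.95 FPKM against 67.1 and 48.9 (log2 −0.93 ± 0.17). MVK, mevalonate kinase, was at 4.03 and 3.99 against 7.37 and 6.30. For both, the control libraries differed from each other by more than the knockdown libraries did, yet without overlap.

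Later steps ranged from log2 differences like that of MVK to almost none. FDPS, which makes farnesyl diphosphate, was at 24.1 and 23.7 FPKM against 44.8 and 35.6. FDFT1, squalene synthase, was at 12.3 and 10.4 against 22.1 and 16.4. EBP, a sterol isomerase, was at 23.5 and 21.4 against 31.9 and 29.7. In every one of these the first Lv3NC library was above the second. The sterol enzyme genes HSD17B7 and TM7SF2 (named after their values were seen) differed by −0.13 and −0.23 on the log2 scale. LBR, a sterol reductase that is also a nuclear envelope receptor, was the sole tested member that was not lower (7.48 against 7.46 FPKM, group means).

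**Figure D3:**
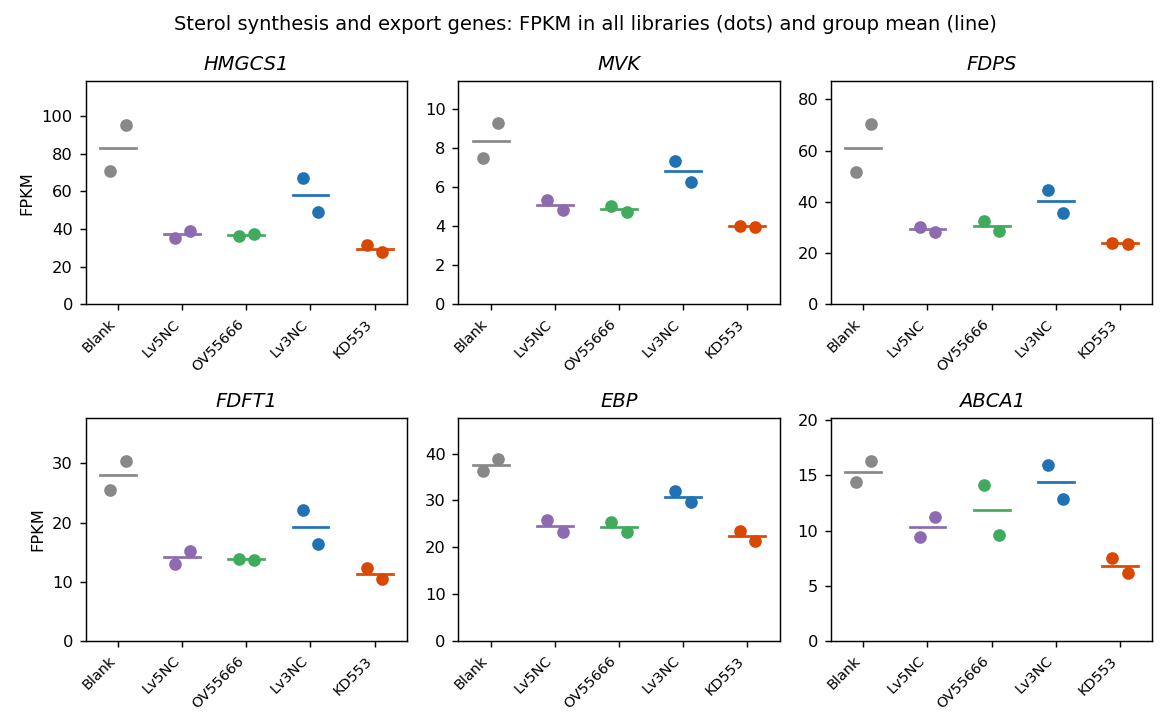
FPKM (vertical axes, from 0) of 5 cholesterol synthesis genes and the exporter gene ABCA1 in each of the 10 libraries; dots are libraries and lines are group means, with the 5 groups along the horizontal axes. Both KD553 libraries are the lowest for HMGCS1, MVK, FDPS, FDFT1 and ABCA1, and the group means of Blank are the highest, with Lv3NC next, in all 6 panels.

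The size of this difference moved with the control used. Set against the Lv3NC mean, the median over the 20 genes was −0.44 and −0.58 in the KD553 libraries, −0.42 and −0.34 in the Lv5NC libraries, −0.36 and −0.40 in the OV55666 libraries and 0.28 and 0.59 in the Blank libraries. The KD553 and Lv5NC libraries were thus close to each other, and the Lv3NC libraries lay above both. Against Lv5NC the median of the list was −0.14, and against Blank −0.95. Of the 20 genes, 8 lay below all 8 other libraries in both KD553 libraries, where 3.79% of all genes did. As 17 of the 20 already lay below both Lv3NC libraries, this count is no separate support. Without the first Lv3NC library the median was −0.39, and without the second −0.72.

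Genes of sterol uptake and export were divided. ABCA1, which exports cholesterol to lipoproteins and is a target of the oxysterol receptors LXR, was at 7.51 and 6.13 FPKM against 16.0 and 12.9, with 9.46 to 16.3 in the other 6 libraries. SREBF2, the gene of SREBP2, was at 22.1 and 20.6 against 29.0 and 23.5. LRP1 and APOE, the most abundant of the list, overlapped between the groups, with LRP1 at 219 and 197 against 223 and 215 FPKM. Of the 24 tested genes, CH25H passed, 10 were higher and 14 lower, and the median was −0.04.

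Fatty acid and triglyceride synthesis, which makes milk fat in the secretory gland, gave 15 higher and 17 lower genes of 32, with a median of −0.03 and 7 lower against 1 higher gene at an unadjusted p under 0.05. ACACA, the acetyl-CoA carboxylase, was at 6.85 and 6.80 FPKM against 9.32 and 8.40, below the other 6 libraries (7 to 10.6) as well. FASN, fatty acid synthase, was at 13.8 and 14.2 against 25.5 and 17.5, inside the range of the other libraries. AGPAT5, an acyltransferase of phospholipid and triglyceride synthesis, was at 3.80 and 4.18 against 5.38 and 5.64.

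Of 20 listed genes of milk proteins and secretion, 10 had a row under their symbol and 6 were tested. SPP1, the secreted phosphoprotein osteopontin, was at 9.03 and 14.6 FPKM against 19.5 and 19.6 (log2 −0.72 ± 0.20, not called). MFGE8, a milk fat globule protein that fibroblasts also make, was at 112 and 117 against 97.1 and 103. Among 18 tested genes of prolactin, growth hormone and STAT5 signalling, 2 lay above both control libraries in both KD553 libraries (19.3% of all genes did). Below both lay 0 (18.3% of all genes did), and the median was −0.02.

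NF-kB target genes were the list with the highest median. Of 22 tested targets of NF-kB, the factor switched on by cytokines and Toll-like receptors, 21 were higher and 1 lower, 14 lay above both control libraries (19.3% of all genes did), and 8 were higher at an unadjusted p under 0.05 (3.93% of all genes). The median was 0.24 and no member was called. IL6 was at 3.53 and 5.83 FPKM against 0.74 and 1.5, with 0.33 to 2.20 elsewhere. CXCL8, which attracts neutrophils, was at 5.97 and 14.1 against 2.03 and 2.89, and the adhesion molecule ICAM1 at 2.24 and 1.67 against 0.47 and 0.89. In all of these both KD553 libraries were above every other library, although the KD553 libraries of CXCL8 were far from each other.

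PTGS2, which makes prostaglandins, was the most abundant of the list, at 64.5 and 83.6 FPKM against 47.9 and 51.5, and its first KD553 library lay within the range of the others (17.0 to 68.9). TNFAIP6, a hyaluronan-binding protein, was the lower member, at 7.04 and 8.44 against 10.5 and 9.82. Each KD553 library alone gave a list median of 0.27 and 0.31. Against Lv5NC the median was 0.23, and against Blank 0.56.

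Chemokine genes had the largest differences among genes with at least 20 FPKM. The row annotated as C-C motif chemokine 17 under LOC102169211 was at 57.7 and 89.5 FPKM against 14.1 and 39.4, and CCL17, a row with the same annotation, at 40.1 and 80.3 against 11.1 and 35.0. Reads may be split between these rows, so their separate values are uncertain. LOC102175889, annotated as C-C motif chemokine 2, was at 37.8 and 70.5 against 15.1 and 27.9, and LOC102182395, annotated as growth-regulated alpha protein-like, at 45.5 and 37.1 against 22.01 and 16.2. The groups did not overlap in any of the 4 rows, but for the first 3 the libraries within a group were far apart, and none was called.

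The 5 genes of that level with the largest differences below control were HMGCS1, LOC102188072, IL33, VGF and HMGA1, and none was called. IL33, an alarmin cytokine, was at 12.5 and 39.5 FPKM against 27.6 and 56.1 with overlapping groups (log2 −0.79 ± 0.74). LOC102188072, annotated as metallothionein-2-like, was at 54.5 and 75.1 against 130 and 95.5, VGF, a secreted neuropeptide precursor, at 145 and 284 against 374 and 326, and HMGA1, a chromatin protein of growing cells, at 23.7 and 35.0 against 56.8 and 43.9. CEMIP, a hyaluronidase, was on the higher side with 148 FPKM in both KD553 libraries against 78.6 and 64.1.

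Interferon-induced and RNA sensing genes were mostly above control by small amounts. Of 29 tested, 24 were higher, 13 above both control libraries (19.3% of all genes) and 1 below both (18.3%), and the median was 0.18. DTX3L, a ubiquitin ligase partner of PARP9, was at 6.10 and 6.48 FPKM against 4.53 and 5.37. MX1, an antiviral GTPase, was at 49.3 and 40.6 against 34.1 and 35.9, which overlapped the other 6 libraries (32.0 to 46.6). The first KD553 library alone gave a list median of 0.26 and the second 0.07. Of 14 tested genes of RNA interference, 3 lay above both control libraries (19.3% of all genes), 4 below both (18.3%) and 7 overlapped. Their median was 0.02, and none had an unadjusted p under 0.05. AGO2, the slicing Argonaute, was at 4.25 and 4.71 against 4.81 and 4.74 FPKM.

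**Figure D4:**
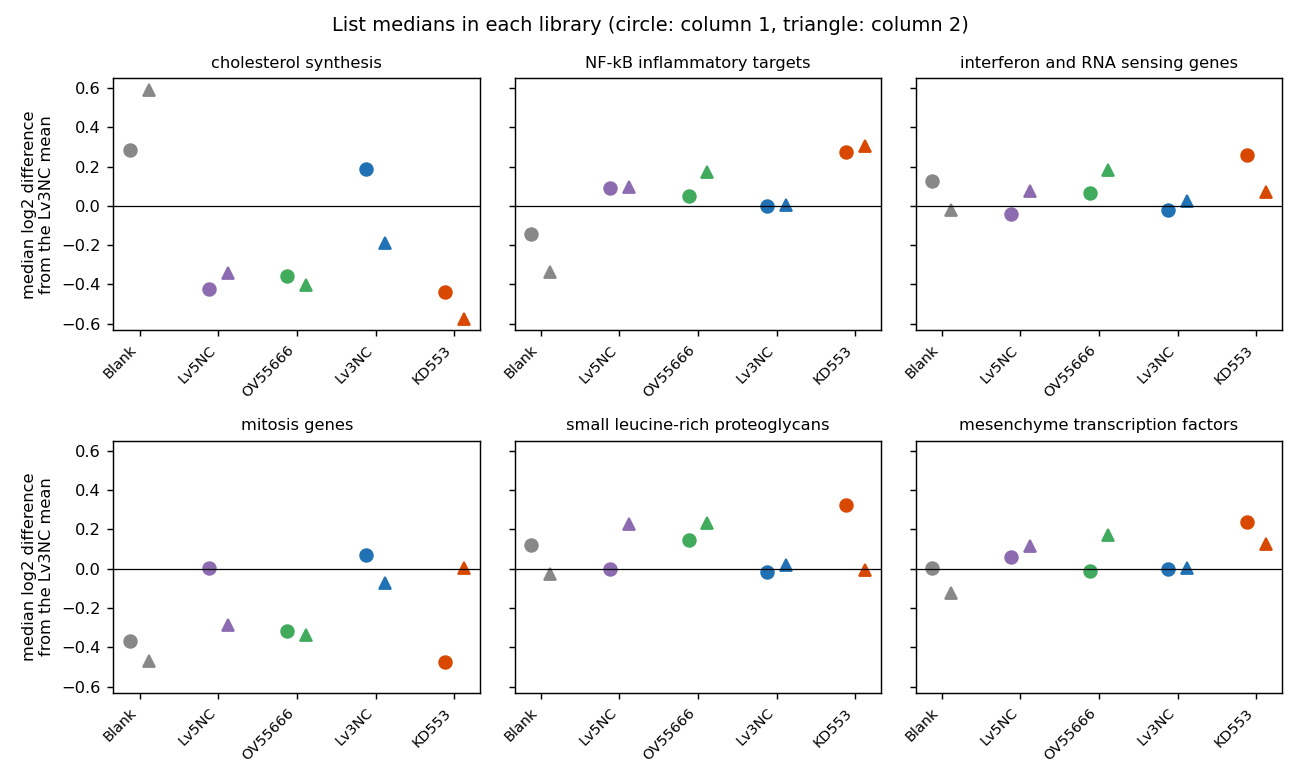
Median log2 difference from the Lv3NC mean (vertical axes) over the tested members of 6 gene lists in each library; circles are the first and triangles the second column of each group, and the 5 groups stand along the horizontal axes. NF-kB targets are at 0.27 and 0.31 in KD553, cholesterol genes at −0.44 and −0.58, and mitosis genes at −0.48 and 0.0013, where the KD553 libraries part.

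Immediate early genes, induced within minutes by growth factors or handling, were higher in 22 of 27, with 8 above both control libraries (19.3% of all genes), 0 below both (18.3%) and a median of 0.19. KLF4 was at 83.0 and 83.7 FPKM against 67.8 and 61.6, and FOSB at 319 and 336 against 276 and 247. FOS itself overlapped, at 247 and 423 against 201 and 349. Without the second KD553 library the median was 0.07. Against Lv5NC the list median was 0.04, and against Blank 0.31. Above all 8 other libraries in both KD553 libraries lay 0 of the 27 genes, where 5.94% of all genes did.

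Matrix genes were mixed. Among the small leucine-rich proteoglycans, 8 of 11 tested genes were above control, the median was 0.23, and PRELP was the called member. OMD was at 10.8 and 7.45 FPKM against 3.89 and 4.77, above the other 6 libraries (2.91 to 4.69), and OGN at 35.1 and 21.1 against 13.5 and 15.3 but within the range of the others (8.65 to 41.1). The abundant members DCN, LUM and BGN overlapped between the groups, with DCN at 2324 and 1848 against 1838 and 1879. Without the first KD553 library the median of the list was −0.0081, while PRELP was as high in the second as in the first. Against Lv5NC the list median was 0.06, and against Blank −0.09.

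Collagen chains were balanced, with 10 of 20 higher and a median of −0.0079. COL1A1, the main chain of type I collagen, was at 4761 and 4824 FPKM against 4641 and 4865. COL8A1, a short-chain network collagen, was at 65.3 and 46.7 against 28.9 and 23.9 and had the largest difference of the list (log2 1.04 ± 0.18), and COL11A1, a regulator of fibril width, was at 88.8 and 85.1 against 56.2 and 57.9 within the range of the other libraries. Of 27 genes of collagen folding and cross-linking, 12 were higher and 15 lower. P4HA3, a prolyl hydroxylase subunit, was at 105 and 133 against 165 and 173, and LOX, which cross-links collagen, at 203 and 207 against 163 and 192.

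Among CCN proteins and other matrix regulators, 17 of 24 were higher and the median was 0.17 (0.08 against Lv5NC and −0.04 against Blank). CYR61 (CCN1) was at 317 and 357 FPKM against 252 and 271, above the other 6 libraries (206 to 265), and CTGF (CCN2) at 219 and 246 against 177 and 172. The log2 difference of CTGF was 0.67 against Lv5NC but 0.005 against Blank. NOV (CCN3) and WISP1 (CCN4) overlapped between the groups, with NOV at 2.01 and 6.12 against 4.66 and 9.13. ACAN, the cartilage proteoglycan aggrecan, was lower at 4.72 and 3.54 against 10.1 and 7.80, and THBS3 lower at 20.8 and 16.5 against 27.4 and 23.5. Of 28 proteinases and inhibitors, 11 were higher and 17 lower. TIMP3, an inhibitor bound to the matrix, was at 11.2 and 10.9 against 7.87 and 6.30, whereas TIMP1 and MMP2, far more abundant, overlapped.

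Mesenchymal transcription factors, a list of homeobox, T-box, TWIST, SNAI, ZEB, OSR and forkhead genes, lay above control in 21 of 25 tested genes, 10 of them above both control libraries (19.3% of all genes), with a median of 0.17. TBX15 was at 6.08 and 5.99 FPKM against 4.54 and 4.69, above all other libraries (4.28 to 4.99), and PRRX1, a factor of limb and skin mesenchyme, at 234 and 220 against 191 and 193. Members at or below control included TWIST2 (18.4 and 17.6 against 19.4 and 19.5) and SNAI2 (71.1 and 84.4 against 68.4 and 91.2). Smooth muscle contractile genes gave 18 higher of 22 and a median of 0.08, with ACTA2 at 981 and 1001 against 800 and 737 and TAGLN overlapping. The median of these contractile genes was 0.09 against Lv5NC and −0.13 against Blank.

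Genes of BMP, TGF-beta and Wnt signalling were near control on the whole. In the BMP and TGF-beta list, 22 of 35 were higher with a median of 0.05 (−0.01 without the first KD553 library). BMP4, a ligand that induces MSX genes, was at 9.36 and 10.5 FPKM against 5.95 and 5.67 and above the other 6 libraries (5.30 to 8.16), while SMAD4, the shared mediator of the pathway, was at 12.7 and 12.7 against 14.0 and 14.5. In the Wnt list, 21 of 31 were higher with a median of 0.09. RSPO2, which amplifies Wnt signals, was at 3.33 and 3.09 against 1.54 and 2.03, TCF7L1 at 10.93 and 10.92 against 7.57 and 7.18, and CTNNB1, beta-catenin, overlapped at 121 and 124 against 121 and 133.

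**Figure D5:**
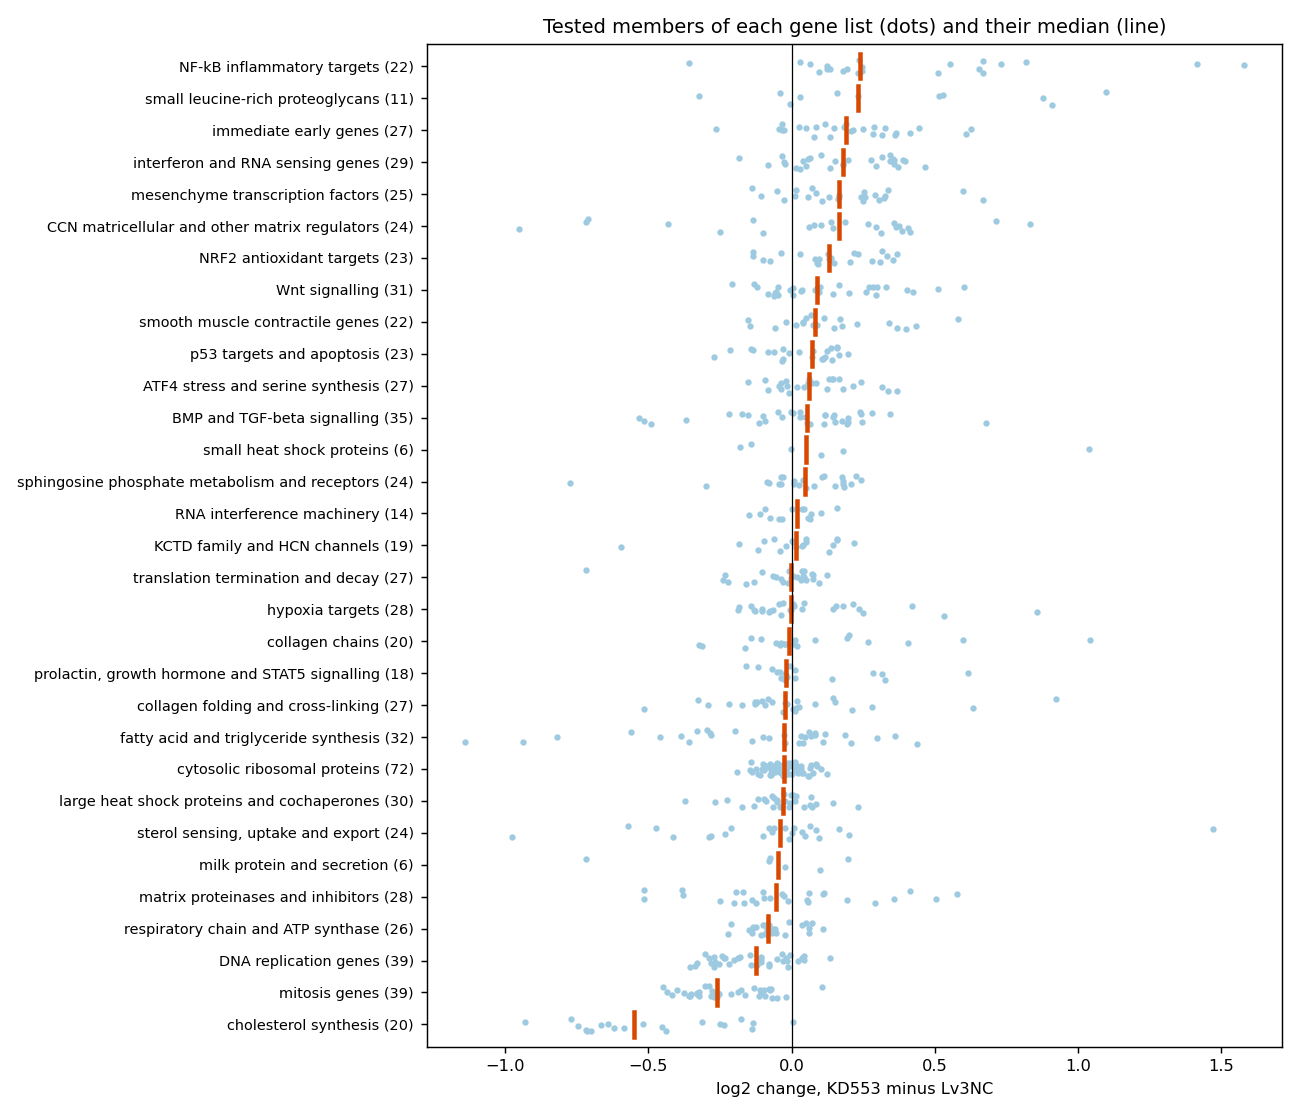
log2 change between KD553 and Lv3NC (horizontal axis) of the tested members of 31 gene lists (rows, ordered by median, number of tested members in brackets); dots are genes, with a small vertical scatter for legibility, and orange lines are list medians. The cholesterol synthesis list has the lowest median, −0.55, and NF-kB targets the highest, 0.24.

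Cell cycle genes were lower in the group means, but the KD553 libraries parted. Of 39 tested mitosis genes 38 were lower, with a median of −0.26, and of 39 DNA replication genes 34 were lower, with a median of −0.12. In both KD553 libraries 7 mitosis and 10 replication genes lay below both control libraries, as did 18.3% of all genes. The first KD553 library alone gave a mitosis median of −0.48 and the second 0.0013, and the replication medians were −0.30 and 0.01. CCNB1, the mitotic cyclin B1, was at 6.90 and 11.4 FPKM against 13.4 and 10.8. UBE2C, a ubiquitin-conjugating enzyme of mitotic exit, was at 9.58 and 13.0 against 16.5 and 14.7, and PCNA, the replication clamp, at 12.1 and 15.1 against 17.4 and 15.6. Against Blank the mitosis median had the opposite sign, 0.19.

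Stress programmes differed little from control. Antioxidant targets of NRF2 gave 18 higher of 23, 11 above both control libraries (19.3% of all genes) and 0 below both (18.3%). Their median was 0.13. NQO1 was at 11.7 and 10.95 FPKM against 8.65 and 8.92, and GSR, glutathione reductase, at 18.2 and 17.0 against 15.6 and 14.4. Targets of ATF4 gave 18 higher of 27 and a median of 0.06, with ATF5 at 127 and 118 against 102 and 94.99. Large heat shock proteins gave 20 lower of 30 and a median of −0.03, with HSP90AA1 at 181 and 211 against 251 and 257. Targets of p53 gave 13 higher of 23 and a median of 0.07, and CDKN1A overlapped at 152 and 123 against 131 and 123.

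Hypoxia targets were balanced at 13 higher of 28 and a median of −0.0025. ADM, the vasodilator adrenomedullin, was at 34.9 and 27.7 FPKM against 19.1 and 14.6, and EPAS1, the factor HIF-2alpha, at 96.2 and 81.8 against 63.5 and 58.6, both within the range of the other 6 libraries. PKM and GAPDH of glycolysis overlapped.

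The machinery of translation and respiration showed narrow spreads. Of 72 cytosolic ribosomal protein genes 48 were lower, with a median of −0.03 and no unadjusted p under 0.05. Against Lv5NC the list median was 0.07 and against Blank 0.19. RPLP1, an acidic protein of the large subunit stalk, was at 1399 and 1397 FPKM against 1400.2 and 1448, and RPSA at 1158 and 1156 against 1186 and 1225. Of 26 genes of the respiratory chain and ATP synthase 20 were lower, 14 below both Lv3NC libraries (18.3% of all genes). The median was −0.08, with no unadjusted p under 0.05. It was not below the other controls, at 0.0035 against Lv5NC and 0.03 against Blank. ATP5B was at 191 and 198 against 218 and 213.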

How the data were processed

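Total RNA of 10 libraries was sequenced, per the labels' protocols. The authors deposited a table of FPKM values with 17197 rows, per the file headers, and the values have 2 decimals. Genome build, aligner and quantifier: not given in the sources used here. FPKM does not keep read numbers, so depth is unknown and no counting interval can be given. Symbols and neighbouring genes came from the RefSeq table of the ARS1.2 assembly, which matched 16658 identifiers; 539 rows have BGI_novel identifiers.

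Values were analysed as log2(FPKM + 1), without further scaling, for 11340 genes that reached 1 FPKM in 2 or more libraries. This scale understates differences of genes with low values. Differences were tested two-sided with limma 3.58.1 in R 4.3.3 (a mean for each of 5 groups, trend and robust options, all 10 libraries, 5 residual degrees of freedom), adjusted by Benjamini-Hochberg over all genes tested and called at an adjusted p under 0.05. In the median gene the 95% interval was the estimate ± 0.245. The steps were tested on simulated data. Lists (31 of pathways, 6 of cell type markers) are described by counts and medians with no list test.

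The comparison, its lists and its tests were chosen with earlier results of these data known. Genes named were the called genes, the 12 uncalled genes in either direction with the smallest unadjusted p whose groups did not overlap, up to 6 members of a list by p and up to 2 by level, all members of families of called genes, and 5 genes in either direction with the largest difference at a mean of 20 FPKM or more. Not all of these are printed, and some are not reported here. Alternatives were other pseudocounts (0.1 and 0.5), filters, scalings, variance options, controls and libraries, and a replicate block. A block on the 4 libraries alone was chosen after seeing the data. A figure of sterol genes shows 6 genes chosen after their values were seen.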

Additional observations from a re-analysis of the deposited data

How the results depend on the processing

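The 8 called genes kept their direction and an unadjusted p under 0.05 in all 17 alternatives (16 for WISP2, which a filter of 5 FPKM removed). The count of 8 became 8 with either other pseudocount, 7 without a filter, 7 with the filter of 5 FPKM, 7 after median centring, 8 after quantile normalization and 8 without trend and robust options; 6 of the 8 genes remained after either scaling and without those options, and 5 without a filter. Fitted on the 4 libraries compared alone, limma gave no call (0), and 859 genes had an unadjusted p under 0.05. Leaving out 1 library of either group gave 0 to 3 calls. With Lv5NC as the control 2 genes were called (HSPB6 and GSPT1), and with Blank 286, all 8 among them; without the second Blank library 12 were called. The cause of these differences was not tested.

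With a replicate block 1 gene was called (CH25H). Whether the numbers pair the libraries is unclear, and they were treated as names only. The difference between library 1 and library 2 correlated across genes at 0.444 between KD553 and Lv3NC and at 0.503 between Lv5NC and OV55666. Between KD553 and Lv5NC it correlated at −0.622, so a block by number over all groups joined libraries that ran in opposite directions. The second Lv3NC library correlated at 0.994 with the first, and at 0.9959 and 0.996 with the first Lv5NC and OV55666 libraries. The labels number the KD553 samples in 2 ways. A block on the 4 libraries alone, chosen after seeing the data, called 59 genes, 35 higher and 24 lower, among them all 8.

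Of the 37 lists, 29 had a median that changed sign under some alternative. Cholesterol synthesis and NF-kB targets were below and above control in every alternative. Such a constant sign was not particular to them. Sterol sensing, uptake and export kept it at a median of −0.04. The immediate early, interferon, NRF2, mesenchymal transcription factor and Wnt lists kept it as well.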
